A study of Mus musculus with 12 samples.

Results

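The 7 sham libraries of the series, out of 12 in all, were described as a pair of sets that follow the library number in their names: libraries 59, 60 and 61 (sham replicates 1 to 3, called early here, n = 3) and libraries 64, 65, 68 and 72 (sham replicates 4 to 7, called later, n = 4). All 7 came from C57BL6/J mice, 8 to 12 weeks old per the study's methods, that had sham surgery in place of permanent middle cerebral artery occlusion (pMCAO, a stroke model). The mice were killed 24 h later, and live EpCAM+ 7AAD- cells were sorted from the whole small intestine, with no pMCAO in either set. The other 5 libraries came from pMCAO mice and were used here only as a second view of the same library order: library 58 (pMCAO replicate 1) was early and 4 libraries were later. The labels name each library as a separate biological replicate. The study's methods mention more than 1 day of collection, but the labels do not tie a library to a day, operator or sequencing run, so the library number is the only label behind the sets.

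The dividing point was chosen from measured values of these same libraries. Among the possible places in the library order, it was the one at which a fit with library sets came closest to the fold changes that the authors had deposited, and all 12 libraries entered that choice. Every difference between early and later libraries given here, in pMCAO too, is therefore a description of how the chosen sets differ, and the calls of the fit are counts and not independent evidence. At the dividing point itself, library 61 had 13386 genes with at least 1 count at equal depth and library 64 had 15371. Equal depth here means an equal total of all counts, mitochondrial ones included. Their coordinates on the first principal component of the 7 sham libraries, which held 46.6% of the variance, were 104.7 and -65.8.

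The lining of the small intestine is renewed from stem cells at the crypt base. Daughter cells divide, leave the crypt and either become absorptive enterocytes, which change their gene programme as they move from the bottom to the tip of the villus, or join a secretory lineage. Goblet cells secrete mucus, Paneth cells at the crypt base secrete antimicrobial peptides, enteroendocrine cells release hormones such as cholecystokinin and somatostatin, and tuft cells sense luminal chemicals and parasites. In bulk RNA from sorted cells, fewer cells of a type and less RNA per cell of that type cannot be told apart.

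Library depth ranged from 7418730 to 26724213 counts. With every library thinned to 7418730 counts, the early libraries held 14319, 13499 and 13386 genes with at least 1 count, and the later libraries held 15371, 15055, 15477 and 15304. The groups did not overlap, with means of 13735 ± 509 (SD, n = 3) and 15302 ± 179 (SD, n = 4). Mitochondrial ribosomal RNA (mt-Rnr1 and mt-Rnr2) took 37.0%, 49.5% and 54.5% of all counts in the early libraries and 35.2%, 26.6%, 14.7% and 31.4% in the later ones, with 95% Wilson intervals no wider than 0.0358 percentage points on either side, which cover counting error only. Both measures moved with the library sets, and their part in the gene differences below was not tested. The second principal component (17.4% of the variance) set sham replicate 2 (-92.8) against sham replicate 3 (90.1), so the early libraries also differed among themselves.

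**Figure D1:**
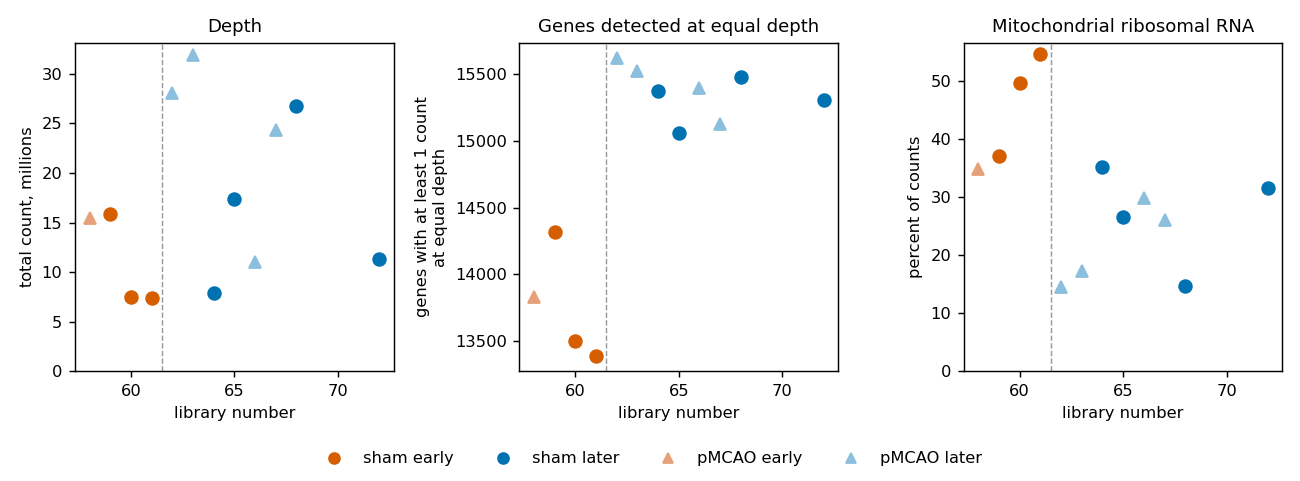
Total count (in units of 1e6), genes with at least 1 count at equal depth, and percent of counts in mitochondrial ribosomal RNA against library number, with 1 point per library, circles for sham, triangles for pMCAO and a dashed line between libraries 61 and 62. The early sham libraries lie between 13386 and 14319 genes and the later ones between 15055 and 15477. Equal depth is by all counts, mitochondrial ones included.

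Levels are given as CPM (counts per 1e6 counts of the library) scaled by TMM, a factor that allows for differences in library composition. Differences are log2 values, early minus later, from a limma-voom fit, so a positive difference means a higher level in the early libraries. The epithelial label was checked first. Epcam, the antigen used for sorting, was at 1889, 2135 and 1996 CPM in the early libraries and at 929, 1559, 1152 and 1010 CPM in the later ones. Krt8 and Cdh1, a keratin and the adherens-junction cadherin of epithelia, were present in all 7, at 672 to 1344 CPM and 355 to 751 CPM. Krt18, the usual keratin partner of Krt8, ran the other way, at 149, 153 and 109 CPM early and 216, 323, 529.6 and 517 CPM later. Epithelial markers were thus high in every library of both sets.

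Of 13498 genes fitted, 257 were called higher in the early libraries (1.9% of the genes fitted) and 489 higher in the later ones (3.62%), 746 in all (5.53%), where called means at least a 2-fold difference with an adjusted p (Benjamini and Hochberg) no larger than 0.05. Since the sets were chosen on these values, nothing is read from the counts. A gene near 0 in the early libraries passed the filter on low counts only through the later ones. Of the 15855 genes in the table, 2357 were not fitted, and 36 of the 489 genes higher in later had no count in any early library. All 15855 had at least 0.5 CPM, unscaled, in at least 4 of the 12 libraries. A gene present only in early libraries (3 sham, 1 pMCAO) thus had to reach that level in each of them, which favours genes of the later libraries. Without sham replicate 1, 2 or 3 the calls dropped to 4, 9 and 12 higher early and 22, 48 and 50 higher later. Without sham replicate 4 they were 123 and 284, and without sham replicate 5 they were 616 and 983. The share of calls that were higher early was 34.5% here, 17.4% with edgeR, 18.0% with DESeq2 and 18.2% with limma-trend. The values of all 3 early libraries lay above all 4 later ones for 1437 genes (10.6%) and below them for 2363 genes (17.5%). Counts of called or non-overlapping members of the lists below are to be set beside these shares. The median difference over all genes fitted was -0.13, or 0.13 under quantile normalisation. It rose with level, from -0.88 for genes of up to 1 CPM over the 12 libraries to 0.58 for genes over 100 CPM. The list medians below are to be read against both the median of all genes and that of genes at their level.

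Enteroendocrine genes were lower in every early library than in every later one. All 25 fitted members of that list had lower values in the early set with no overlap between groups, 20 of the 25 were called higher in later and none higher in early, and the median difference was -3.80. Summed over the list, enteroendocrine genes reached 357.9 to 593.4 CPM in the early libraries and 3295 to 4540 CPM in the later ones. The list score, the mean log2 CPM of its members, was 1.33 to 1.73 early and 4.95 to 5.16 later. Among genes with a mean level of 10 to 30 CPM over the 12 libraries, the median difference was -0.04, and at 30 to 100 CPM it was 0.29. The median level of the list members was 43.1 CPM in the later sham libraries alone. That is not a mean over the 12 libraries, so it does not place them in either range.

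The granins and hormones show the pattern one gene at a time. Chga (chromogranin A, a protein of hormone granules) was at 35.5, 39.8 and 23.5 CPM early and at 176, 207, 222 and 192 CPM later, a difference of -2.58 (SE 0.24). Chgb, its relative chromogranin B, was at 104, 159 and 139.7 CPM early and at 869.8, 774, 911 and 845 CPM later, a difference of -2.70. For both, the later libraries were close together and the early ones well below them. Cck, which encodes cholecystokinin, the hormone that contracts the gall bladder, was at 8.43, 4.31 and 35.7 CPM early and at 588, 398, 217 and 505 CPM later (difference -5.37, SE 0.56). Sst, which encodes the inhibitory hormone somatostatin, was at 1.63, 3 and 4.51 CPM early against 111, 78.3, 143 and 273 CPM later (difference -5.82, SE 0.89). Both hormone genes were low in all early libraries. Gip, the incretin of K cells, was at 18.5, 32.8 and 60.2 CPM early and at 433, 205, 586 and 673 CPM later. Ghrl, which encodes ghrelin, was at 1.91, 4.31 and 24.4 CPM early and at 97.5, 132, 47 and 183 CPM later. In most of these genes sham replicate 3 was the highest of the early libraries, but it stayed below all later ones. Gcg, the precursor of glucagon-like peptides, had no count in any early library and 19.2, 14, 9.94 and 5.59 CPM later, which puts it at least 87.8-fold higher in later against a floor of 3 counts over the early group. Asic5, an ion channel of the acid-sensing family and the gene with the largest drop in level by the naming rule, had 2 counts in the early libraries together and 12.8 to 27.2 CPM later, a ratio of 272 with a 95% counting interval of 75.1 to 2245.

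Transcription factors and processing enzymes of the enteroendocrine lineage lay on the same side. Neurod1, a factor that drives the fate, was at 3.61, 5.82 and 8.12 CPM early and at 52.7, 58.7, 51.9 and 41.7 CPM later (difference -3.40, SE 0.42). Pcsk1, the convertase that cuts prohormones, was at 9.36, 9.94 and 7.22 CPM against 44.9, 40.4, 40.8 and 35.3 CPM, and Tph1, the enzyme that starts serotonin synthesis in enterochromaffin cells, was at 46.8, 38.5 and 31.8 CPM against 164, 193, 174 and 193 CPM. For all 3 genes every early library was below every later one. Scg2, another granule protein, stood at 1.42, 0.375 and 6.77 CPM early and at 69.9 to 81.3 CPM later. The 5 fitted members that were not called, Tac1, Scgn, Fev and Vwa5b2 among them, also had lower values in early, and 1 of 26 was not fitted (Pax4).

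Promoter sequence is shown for the granins and somatostatin because cyclic AMP response elements are known in promoters of this kind. Each line gives the 100 bases before the RefSeq start on the gene's own strand, 5′ to 3′, in GRCm38.p6, with the searched motif in capitals. Sst lies at chr16:23890845-23890944 on the minus strand, Chgb at chr2:132781542-132781641 and Chga at chr12:102554841-102554940 on the plus strand.
Sst: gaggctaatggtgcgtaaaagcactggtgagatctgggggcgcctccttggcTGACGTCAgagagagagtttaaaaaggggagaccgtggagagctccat
Chgb: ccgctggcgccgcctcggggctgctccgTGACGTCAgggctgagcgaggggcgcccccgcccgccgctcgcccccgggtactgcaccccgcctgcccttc
Chga: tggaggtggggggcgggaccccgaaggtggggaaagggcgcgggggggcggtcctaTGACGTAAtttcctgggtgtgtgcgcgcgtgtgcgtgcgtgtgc
The palindrome TGACGTCA was found in 508 of 32851 promoters (1.55%) when the 250 bases before each start were read, which is 478 of 27025 genes (1.77%), and in 4 of the 23 enteroendocrine genes with a promoter in the table (Chgb, Pax6, Pcsk1 and Sst). TGACGTAA, searched on both strands, was in 147 promoters (0.447%) of 142 genes (0.525%), and Chga was the 1 enteroendocrine gene that held it. The motif starts 48 bases before the start site in Sst, 72 in Chgb and 44 in Chga. A match describes the letters and is not evidence of binding.

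**Figure D2:**
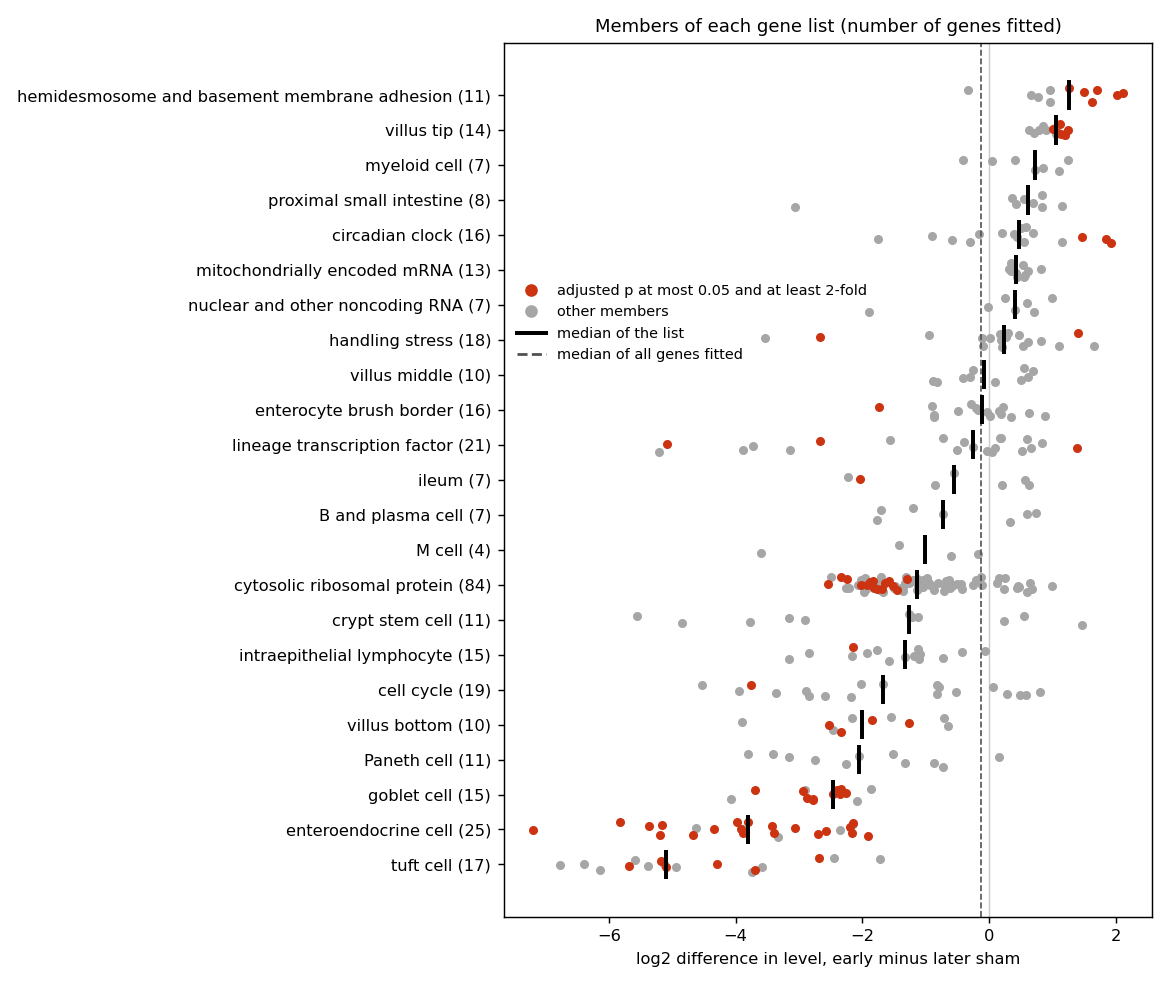
Log2 difference in level, early minus later sham, for each fitted member of 23 gene lists, with a bar at each list median and a dashed line at the median of all genes (-0.13). Red points were called. Tuft (median -5.09), enteroendocrine (-3.80) and goblet (-2.46) members lie to the left, and villus tip (1.05) and adhesion (1.27) members to the right.

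Tuft cell genes differed most by median. All 17 fitted members had lower values in the early libraries, 16 without overlap, and the median was -5.09, with 6 called, Dclk1, Avil, Lrmp, Sh2d6 and Kctd12 among them. Dclk1, the kinase used as the standard tuft marker, was at 4.96, 4.31 and 11.1 CPM early and at 64.1, 83.6, 338 and 82.8 CPM later (difference -4.30, SE 0.87). Sh2d6, an adaptor protein, was at 1.91, 1.5 and 12.6 CPM against 63.4, 69.4, 257 and 80.3 CPM. In both genes the early libraries were lowest and sham replicate 6 was far above the other later libraries. Trpm5, the cation channel of taste-like chemosensing, was at 23, 2.81 and 18.7 CPM early and at 39.1, 47, 174 and 74 CPM later, and was not called. Pou2f3, the transcription factor that tuft cells require, was at 0, 0.188 and 2.26 CPM against 10.2, 10.1, 33.5 and 8.81 CPM, and Siglecf, a surface lectin, was at 0.142, 0 and 1.58 CPM against 19, 18.9, 80.9 and 21.5 CPM. Neither was called, although the groups did not overlap. Lrmp, a membrane protein of the endoplasmic reticulum, was at 0.992, 0.188 and 3.61 CPM early and at 20.4, 20.4, 66.3 and 36.8 CPM later. Il25, the tuft cytokine, was among the 3 members not fitted and had no count in the early libraries. Outside the list, the genes with the largest negative differences by the naming rule included Pik3r5, a regulatory subunit of phosphoinositide 3-kinase, at 1.13, 0.188 and 7.22 CPM early and 26.7, 45.7, 141 and 50.4 CPM later, and Ehf, an epithelial Ets factor, at 0.496, 1.88 and 1.35 CPM early and 18.9, 24.4, 70.4 and 30.9 CPM later. In these 2 genes too, sham replicate 6 was the highest later library. The summed tuft level was 29.4 to 82.4 CPM in the early libraries and 411 to 1772 CPM in the later ones. For 9 of the 20 tuft genes in the table, an exon overlaps a gene on the other strand, and since strand-aware counting is not stated, reads of such pairs cannot be told apart.

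Goblet cell genes were also lower in the early libraries, by a smaller step. All 15 members had lower values early, 13 without overlap, 11 were called higher in later and none higher in early, and the median was -2.46. Muc2, the gel-forming mucin of intestinal mucus, was at 2057, 1353 and 2607 CPM early and at 8877, 6297, 7536 and 16417 CPM later (difference -2.25, SE 0.32). Tff3, a trefoil peptide secreted with mucin, was at 201, 201 and 413 CPM against 1622, 1307, 1400 and 3889 CPM. Clca1, a secreted protease of the mucus layer, was at 304, 275 and 597 CPM against 2028, 1392, 1790 and 2276 CPM. The early libraries never reached the lowest later one, and sham replicate 7 was the highest later library for all 3. Agr2, a disulfide isomerase needed for mucin folding, was at 41.4, 41.3 and 99.3 CPM early and at 488, 207, 387 and 652 CPM later. Spdef, the factor for goblet maturation, was at 3.47, 2.06 and 1.13 CPM early and at 14.6, 11.7, 15.9 and 32.1 CPM later.

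Paneth cell genes were sparse in every library. Of 11 fitted members none was called, 10 had lower values early, and 3 did not overlap. Over all genes fitted, 5.53% were called and 17.5% were lower early without overlap. The median was -2.05, or -1.11 under quantile normalisation and -1.05 without sham replicate 7, which held the highest levels. Lyz1, the Paneth lysozyme, was at 2.69, 2.25 and 2.48 CPM early and at 18.4, 2.22, 5.55 and 28.3 CPM later, so sham replicate 5 lay level with the early libraries. Mmp7, which activates defensins, had no count in the early libraries and 0.516 to 2.06 CPM later, at least 9.01-fold higher in later against the floor. The defensin genes are near-identical copies, so counts of any 1 of them are uncertain.

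Stem cell and cell cycle genes showed lower medians in the early libraries but overlapped more. In the crypt stem cell list, 8 of 11 fitted members had lower values early, 5 without overlap, and none was called. The median was -1.26, but between -2.19 and -3.15 without sham replicate 1, 4, 5, 6 or 7, -0.80 without sham replicate 3, and 0.30, the opposite sign, under quantile normalisation. Lgr5, the receptor that marks crypt base stem cells, had 1 count in the early libraries together and 1.81, 0.475, 7.73 and 3.48 CPM later, a count ratio of 114 (95% counting interval 20.3 to 4501). Olfm4, a secreted stem cell marker, had 3 early counts and 4.52, 11.3, 3.56 and 39.6 CPM later, a ratio of 93.7 (32.0 to 455). Both genes stood above the early level in every later library, at low and uneven values. Each ratio pools the counts of a set, so deeper libraries weigh more. Sham replicate 6, the deepest, also held the highest Lgr5 level. Of 19 cell cycle genes, 14 had lower values early and 1 was called, beside 5.53% of all genes fitted. The called gene was Plk1, a mitotic kinase, at 1.2, 0.75 and 0.677 CPM early and 12.6, 14.6, 11.7 and 16.9 CPM later. The cell cycle median was -1.67, but -0.84 under quantile normalisation, -0.92 without sham replicate 4 and -0.69 without sham replicate 7. Genes of 1 to 3 CPM over the 12 libraries had a median of -0.74, and those of 3 to 10 CPM -0.37. The median level in the later libraries was 2.63 CPM for cell cycle and 3.61 CPM for stem cell members. Mki67, the proliferation antigen Ki67, was at 29.8, 12.4 and 10.8 CPM early and at 26.4, 42.2, 16.5 and 77.6 CPM later, and these ranges overlapped.

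Along the villus the lists divided. Villus tip genes had higher values in the early libraries: all 14 members were positive, 8 without overlap. Of these, 6 were called higher in early (Npc1l1, Creb3l3, Krt20, Enpp3, Pmp22 and Ifrd1) and none higher in later. The median was 1.05, or 0.52 under quantile normalisation. Genes over 100 CPM over the 12 libraries had a median of 0.58, and the median level of tip genes in the later libraries was 1304 CPM. Krt20, a keratin of mature villus cells, was at 3709, 4533 and 4213 CPM early and at 1751, 3033, 1525 and 1621 CPM later (difference 1.12, SE 0.25). Enpp3, an ectonucleotidase, was at 1577, 2133 and 2352 CPM early and at 817, 1577, 818 and 484 CPM later (difference 1.25, SE 0.32). Npc1l1, the cholesterol importer of the brush border, was at 2778, 2560 and 3230 CPM against 1255, 1737, 1647 and 1120 CPM. Sham replicate 5 was the highest later library for each of the 3. The same library reached or passed the early ones for purine-handling tip genes. Ada (adenosine deaminase) was at 3406, 3438 and 3820 CPM early and at 1814, 3944, 1352 and 889 CPM later, and Nt5e, the 5′-nucleotidase CD73, was at 2244, 2201 and 1930 CPM early and at 569.8, 2648, 929 and 529 CPM later. Its tip score was 10.93, beside 11.04 to 11.15 in the early libraries and 9.67 to 9.91 in the other 3 later ones. Within the later set alone the tip score thus spanned 9.67 to 10.93.

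Villus bottom genes lay on the other side. All 10 had lower values early, 8 without overlap, 4 were called (Reg3b, Lypd8, Ccl25 and Dmbt1), and the median was -2.0. Lypd8, which holds flagellated bacteria off the epithelium, was at 115, 147 and 283 CPM early and at 1204, 645, 796 and 1259 CPM later (difference -2.52, SE 0.32). Ccl25, the chemokine that draws lymphocytes to the small intestine, was at 38.7, 42.4 and 39.9 CPM against 94.8, 75.5, 119 and 97.9 CPM. For both genes every early library was below every later one. Reg3b, an antibacterial lectin, overlapped at 360.5, 131 and 162 CPM early and 1871, 732, 572 and 326 CPM later, and its reads may be shared with the similar gene Reg3g. Villus middle genes split 5 and 5 around a median of -0.07, with none called. Brush border genes had a median of -0.11, 7 positive and 9 negative, and 1 was called, beside 5.53% of all genes fitted. The called gene was Fabp1, a fatty acid carrier, at 210.0, 218 and 241 CPM early and 1123, 351, 1370 and 578 CPM later. Vil1 (villin, which bundles the actin of microvilli) was at 1209, 1113 and 1200 CPM early and at 799.9, 885, 893 and 518 CPM later, whereas Sis (sucrase-isomaltase) was at 793, 952 and 745 CPM early and at 1553, 1359, 2186 and 1281 CPM later, so even abundant enterocyte genes pointed in opposite directions.

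**Figure D3:**
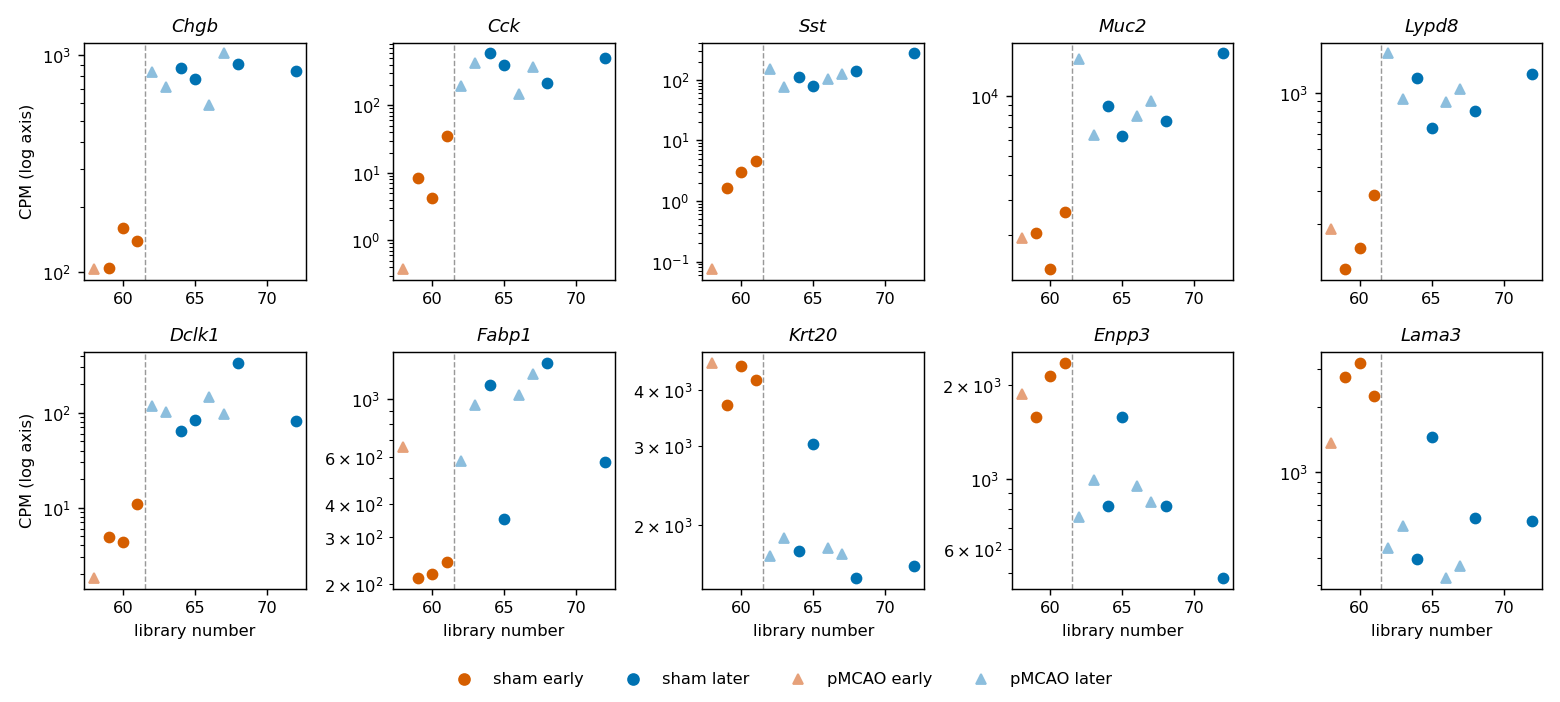
CPM on a log axis against library number for 10 genes, with sham libraries as circles, pMCAO libraries as triangles and a dashed line between libraries 61 and 62. Chgb, Cck, Sst, Muc2, Lypd8 and Dclk1 are lower to the left of the line in all libraries, and Krt20 and Lama3 are higher there in the sham libraries.

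Region markers of the gut did not follow the split in the same way. Of 8 markers of the proximal small intestine, 7 had higher values early with a median of 0.62, or 0.41 without sham replicate 3 and 0.32 under quantile normalisation, and none was called. The 1 marker without overlap was higher in later, and the lowest difference of the list was -3.07. The list scores were close, at a mean of 4.41 early and 4.32 later. Of 7 fitted ileum markers, 3 had higher values early and 4 lower, with a median of -0.55, and 1 was called, Fabp6, the ileal bile acid carrier, at 18.2, 20.1 and 7.9 CPM early and 41.2, 34.9, 84.2 and 129 CPM later. Slc10a2, the bile acid importer of the ileum, was at 2.13, 0.375 and 0.903 CPM early and 3.17, 3.54, 9.94 and 4.08 CPM later. Both bile acid genes were lower early in the sham libraries.

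Of 21 transcription factors of epithelial lineages, 3 were called. Prdm1 (Blimp-1, a repressor that acts in villus enterocytes) was higher early, at 131, 129 and 132 CPM against 41.8, 98.9, 52.9 and 26.8 CPM (difference 1.39, SE 0.34). Atoh1, which commits cells to the secretory lineage, was at 1.91, 1.69 and 11.7 CPM early and at 17.1, 15.1, 14.6 and 28.1 CPM later (difference -2.66, SE 0.63). Foxa2, a factor of goblet and enteroendocrine cells, had no count early and 1.43 to 4.93 CPM later, at least 21.1-fold higher in later against the floor. Hes1, the Notch target that opposes Atoh1, was at 9.43, 11.6 and 7.67 CPM early and at 13.8, 2.59, 6.35 and 8.81 CPM later, with overlap. Of all 21 factors, 9 had positive and 12 negative differences, with a median of -0.25. Hnf4a, Hnf4g and Cdx2, factors of enterocyte identity, had differences from -0.39 to 0.60 and none was called.

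Among the 10 genes with the largest positive differences by the naming rule, 3 belonged to adhesion to the basement membrane. A list of 11 hemidesmosome and basement membrane genes, which also holds Dsp of the desmosome, was made after those were seen. It had 10 positive members, 8 without overlap, 6 called higher in early (Lama3, Itgb6, Dst, Plec and Dsp among them) and none in later. The genes it takes from those 10 were called and without overlap by the naming rule, so its counts were partly fixed in advance. Its median was 1.27, or 0.78 with the trends on length and GC content removed. The median transcript length of its members was 5588 bases, against 3127 bases for all genes. Their median level in the later libraries was 126 CPM, and genes over 100 CPM over the 12 libraries had a median difference of 0.58. Lama3, which encodes a chain of laminin-332, was at 2753, 3227 and 2268 CPM early and at 393, 1455, 611 and 590.3 CPM later (difference 2.02, SE 0.35). Dst, which encodes dystonin and links keratin to the hemidesmosome, was at 140.2, 117 and 124 CPM against 36.8, 43.8, 32.7 and 45.6 CPM. The early libraries were above all later ones, and sham replicate 5 was the nearest for Lama3. Dsp, the desmosome plaque protein desmoplakin, was at 3795, 3118 and 2814 CPM early and at 877, 2165, 835 and 1024 CPM later.

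The other early-high genes had varied roles. Ssh1, a phosphatase that activates cofilin, was at 76.2, 80.5 and 92.1 CPM early and at 31, 28.6, 20.2 and 18.3 CPM later. Ptprb, a receptor tyrosine phosphatase best known from endothelium, was at 17.8, 52 and 32 CPM against 8.48, 11.3, 3.23 and 7.89 CPM, and Dusp10, a phosphatase of stress kinases, was at 21, 28.3 and 15.1 CPM against 4.41, 7.44, 6.14 and 7.56 CPM. Stab1, a scavenger receptor, was at 38.1 to 117 CPM early and 13.9 to 31.9 CPM later, and the unnamed models Gm37783 and Gm11545 were also among the 10. Cry1, a repressor of the circadian clock, was at 81.4, 44.3 and 65.2 CPM early and at 7.8, 41.1, 12.7 and 19.7 CPM later. In a list of 16 fitted clock genes, also made after values were seen, 3 were called higher in early, Arntl and Cry1 among them, and none in later. These counts too were partly fixed in advance. The median was 0.48, or 0.29 without sham replicate 1, 0.26 with all 12 libraries and 0.18 under quantile normalisation. Arntl, the activator BMAL1, was at 70.9, 71.8 and 75.1 CPM early and at 18.1, 43.1, 18.8 and 31.2 CPM later, whereas Per2, a clock repressor, overlapped at 46.8 to 51.7 CPM early and 19.4 to 73.1 CPM later. The time of day of collection is not given in the labels.

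Genes of the cytosolic ribosome, short transcripts made in every cell, had lower values in the early libraries. Of 84 fitted members, 73 were lower, 51 without overlap, 15 were called higher in later and none higher in early, and the median was -1.14, or -0.73 under quantile normalisation. Rps3 was at 13.3, 11.4 and 16.7 CPM early and at 46.4, 62.1, 39.6 and 60.6 CPM later. The 85 genes of the list summed to only 582 to 702 CPM early and 1066 to 2301 CPM later. Their median level in the later libraries was 9.06 CPM. Why so few counts fell to these genes was not tested, so the values are not read as ribosomal protein expression. Over all genes, the median difference rose with level, from -0.88 for genes of up to 1 CPM to 0.58 for genes over 100 CPM, and with transcript length, from -0.42 up to 1000 bases to 0.11 over 6000 bases. Genes called higher in early had a median transcript length of 4467 bases and those called higher in later 3036 bases, against 3127 bases for all. Removing the trends on length and GC content within each library left 195 genes higher in early and 411 higher in later. In that fit the adhesion median was 0.78, and the medians were -5.01 for tuft, -3.66 for enteroendocrine, -2.67 for goblet, -1.01 for ribosomal protein and 1.10 for villus tip genes. The part of level in the list differences was not tested.

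**Figure D4:**
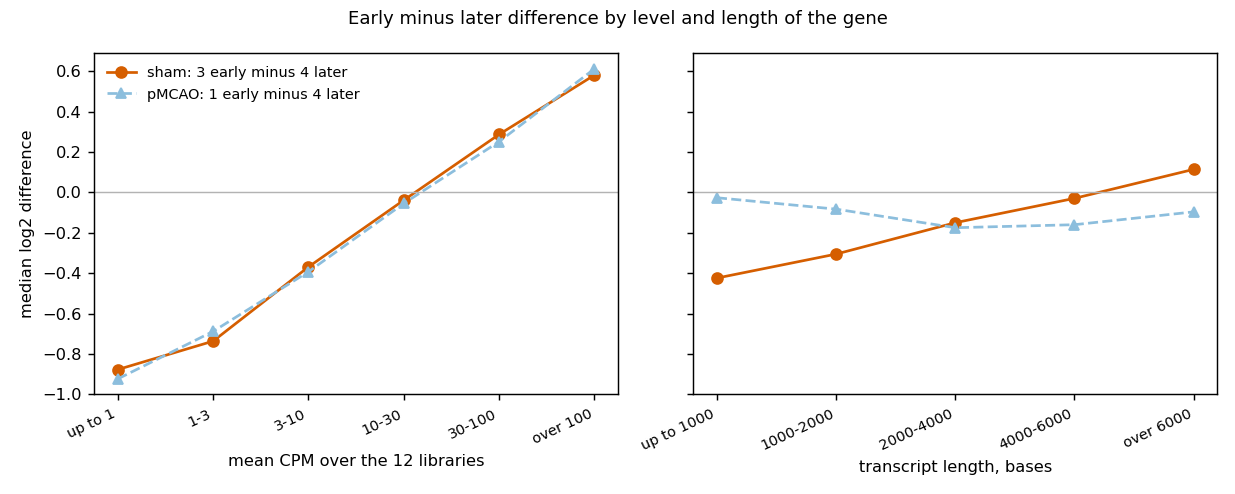
Median log2 difference, early minus later, of genes binned by mean CPM over the 12 libraries (left) and by transcript length in bases (right), for sham and for pMCAO. With level, both run from below -0.8 to about 0.6. With length, the sham median rises from -0.42 to 0.11 and the pMCAO median stays between -0.17 and -0.03.

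Markers of cells other than epithelium were compared for the same libraries. Of 15 intraepithelial lymphocyte genes, all 15 had lower values early with a median of -1.33, or -0.74 without sham replicate 7. Of them 1 was called, beside 5.53% of all genes fitted. It was Ptprc (the leukocyte antigen CD45), at 13.5, 18.8 and 18.3 CPM early and 46.1, 44.4, 99.4 and 109.6 CPM later. The summed level of the 15 genes was 42.4 to 206 CPM early and 178 to 791 CPM later, so the groups overlapped. Cd3e, a T cell receptor chain, was at 1.42, 3 and 0 CPM early and at 14.4, 8.39, 2.06 and 32.5 CPM later. B and plasma cell genes summed to 28.8 to 106 CPM early and 15.8 to 99.1 CPM later, and myeloid genes to 22.3 to 35.5 CPM early and 12.6 to 41.0 CPM later, with none called in either list. The 2 mesenchyme and vessel genes in the table summed to 2.48 to 5.82 CPM early and 3.87 to 11.1 CPM later, and the pancreatic acinar gene Cela1 was at 0.375 to 4.29 CPM early and 0.844 to 5.06 CPM later. Red blood cell genes were highest in sham replicate 3, where Hbb-bs was at 17.6 CPM beside 0.0703 to 4.5 CPM in the other 6 libraries, and Hbb-bs shares near-identical sequence with Hbb-bt. The part of lymphocyte or blood RNA in the epithelial differences was not tested.

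Genes that respond to handling and dissociation gave no common direction. Of 18, 13 were positive with a median of 0.23, which became -0.07 under quantile normalisation, and 1 was called in each direction. Over all genes fitted, 5.53% were called. Socs3, a feedback inhibitor of cytokine signalling, was at 49.5, 49.9 and 84.8 CPM early and at 31.8, 22.5, 17.5 and 21.4 CPM later, and Hsph1, a heat shock protein, was at 1.42, 10.7 and 4.74 CPM early and at 15.9, 18.9, 22.1 and 17.6 CPM later. Fos, an immediate early gene, was at 706, 646 and 732 CPM early and at 429, 650.4, 320.0 and 465 CPM later, and overlapped at sham replicate 5. All 13 mitochondrially encoded mRNAs were positive, with a median of 0.43, or 0.032 under quantile normalisation, and none was called. Genes over 100 CPM over the 12 libraries had a median of 0.58, and the median level of these 13 in the later libraries was 1416 CPM.

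The pMCAO libraries give the same library order in other animals, with 1 early library against 4 later ones and so with no replicate of the early level. The medians there were -3.72 for enteroendocrine, -3.58 for tuft, -2.34 for goblet, -1.38 for villus bottom, 1.47 for villus tip and 1.24 for adhesion genes. Other lists followed sham less closely. The ribosomal protein median was -0.47, beside -1.14 in sham. It was -0.26 beside -1.01 for M cell genes, and 0.22 beside -0.11 for brush border genes. The ribosomal protein score of pMCAO replicate 1 was 2.81. Later sham libraries spanned 2.70 to 3.64 and early ones 1.81 to 2.07. Of the 257 genes called higher in early among sham libraries, 253 (98.4%) were also higher in the early pMCAO library than in the mean of the later ones, and of the 489 called higher in later, 474 (96.9%) were lower there, against 9619 of 13498 (71.3%) with the same sign over all genes fitted. These libraries took part in choosing the dividing point, so the shares are a description. Chgb was at 103 CPM in pMCAO replicate 1 and at 588 to 1020 CPM in the other 4, Muc2 at 1937 CPM beside 6344 to 15317 CPM, and Krt20 at 4614 CPM beside 1707 to 1877 CPM. Each of these values for pMCAO replicate 1 lay on the side of the early sham libraries. Both region lists had the opposite sign in pMCAO. The ileum median was 0.52 there, and the proximal small intestine median was -0.27, with 4 of 8 members of the same sign as in sham.

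**Figure D5:**
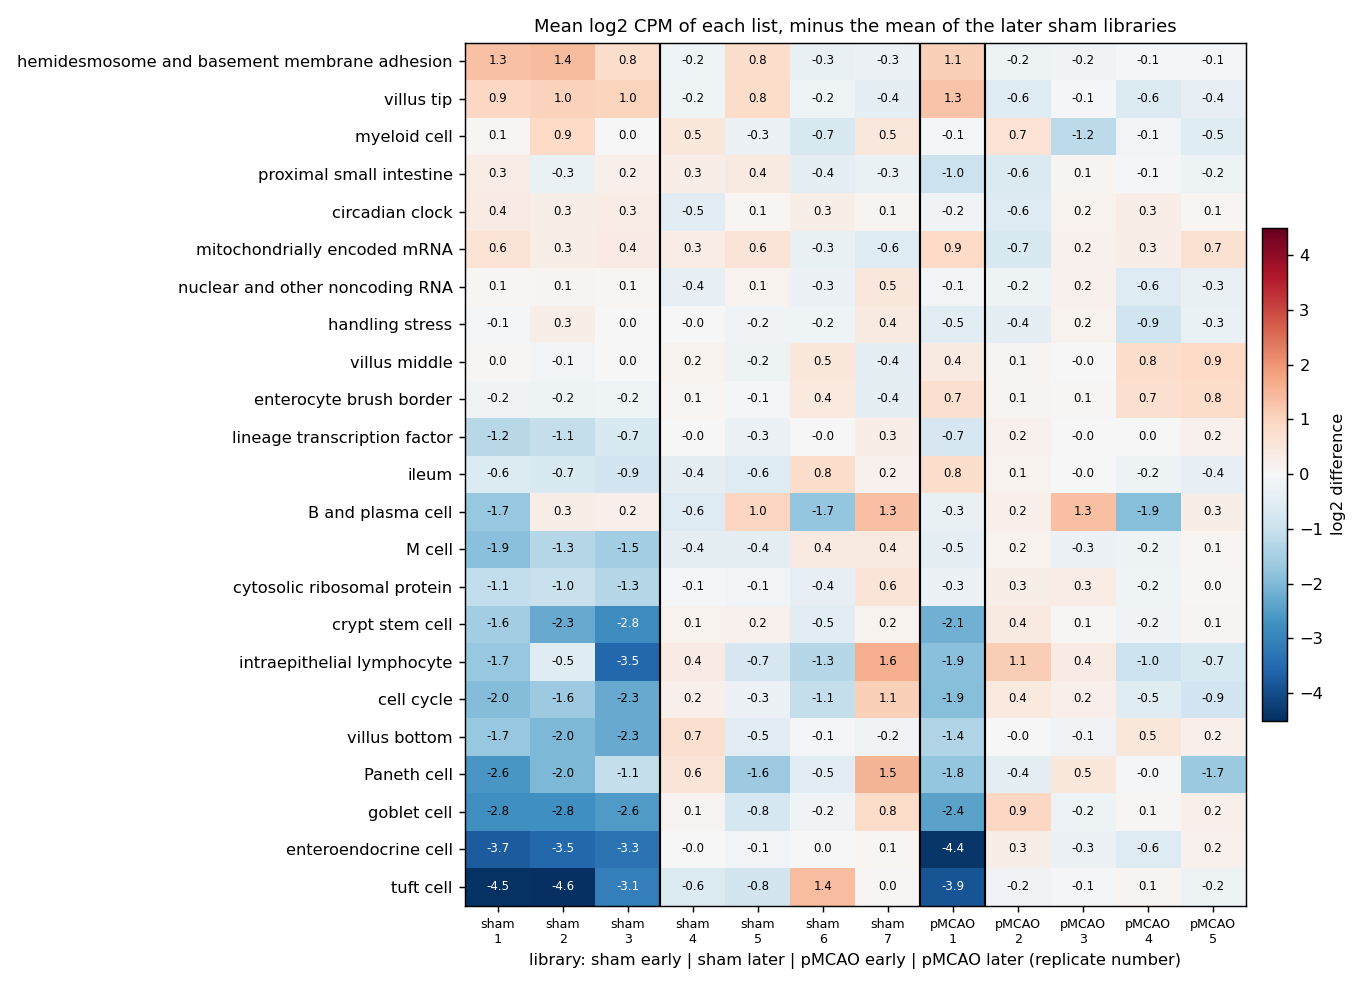
Mean log2 CPM of each gene list in each of the 12 libraries, minus the mean of the 4 later sham libraries, with black lines between the library sets. Enteroendocrine, tuft and goblet lists are below the later sham mean in the 3 early sham libraries and in pMCAO replicate 1, and villus tip and adhesion lists are above it there and in sham replicate 5.

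The early minus later difference was also compared between sham and pMCAO animals. The early pMCAO arm is 1 library, assumed to vary like the other groups, and the sets were chosen on these 12 libraries, so this too is a description and does not show that the treatments differ. In a limma-voom fit over all 12 libraries, 1 of 15848 genes was called (0.00631%), with 851 at an unadjusted p under 0.05. edgeR called 1 and DESeq2 called 61. The gene was Tm4sf4, a tetraspanin-like membrane protein. It was at 75.8, 59.1 and 62.5 CPM in the early and 110.3, 138, 159 and 156 CPM in the later sham libraries, but at 339.6 CPM in pMCAO replicate 1 and 144, 101, 120.5 and 127 CPM in the other pMCAO libraries. The difference between the contrasts was -2.59 (SE 0.34, limma adjusted p = 0.0137), it rests on that 1 early pMCAO library, and no gene was called without sham replicate 1, 2 or 3.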

How the data were processed

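RNA of sorted small-intestinal epithelium had been made into libraries by the authors with the Trio RNA-seq kit, with ribosomal RNA removed by cleavage, sequenced as paired reads of 100 bases, aligned with STAR to GRCm38 and assigned to genes with featureCounts; strand-aware counting is not given in the sources used here. The authors deposited raw counts and CPM per library for 15855 genes, beside columns of their own comparison (log2 fold change, mean level, p-value and FDR). No value of those columns was used in the fits, but the fold changes had served, before this work, to place the dividing point of the library sets. All 12 count columns were matched to samples by library name. All 190260 deposited CPM values equalled the counts over the column total to within 0.001 CPM.

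In R 4.3.3, counts of the 7 sham libraries were scaled by TMM in edgeR 4.0.16, filtered on low counts by its own rule, which left 13498 genes, and fitted by voom in limma 3.58.1. Genes were called where the log2 difference was 1 or more in size and the p-value, adjusted by the method of Benjamini and Hochberg, was no larger than 0.05. The test of sham against pMCAO used the 4 groups of library set and treatment. Alternatives were the edgeR quasi-likelihood test, DESeq2 1.42.0, limma-trend, other scalings, no filter, equal depth and leaving out each library; quantile normalisation, removal of length and GC trends, and leaving out sham replicates 2 and 3 together were chosen after seeing the data. Scripts were tested on simulated data. Figures and summaries used Python 3.11.15, and promoters came from RefSeq, GRCm38.p6.

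The members and gene lists were chosen with earlier results of these data known. Of 329 listed genes in 24 lists, 277 were in the table. Named genes were the 10 with the largest called differences in each direction without overlap and with at least 20 CPM in the higher group, the first 3 and the most different gene of each list, the mitochondrial ribosomal RNAs, Epcam, Krt8, Krt18, Krt20 and Cdh1, and the gene called between treatments; other genes, and the clock, adhesion and ribosomal protein lists, were picked after their values were seen. A few genes are not reported here. Floors (3 counts) and intervals cover counting error only. Every pair of libraries of a group differed by more than sampling noise.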

Additional observations from a re-analysis of the deposited data

Results flagged for a closer look

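Among the 4 later sham libraries, the highest or lowest value lay far from the other 3 in 11 of 135 sets of values examined by Dixon's criterion, where chance gives about 1 in 20, or 6.75. Sham replicate 6 stood apart for tuft genes on the log2 CPM scale. Sh2d6 was at 8.01 there against a mean of 6.15 ± 0.17 (SD, n = 3) in the others, and Dclk1 at 8.40 against 6.26 ± 0.22. Pou2f3 was at 5.07 against 3.29 ± 0.12, Siglecf at 6.34 against 4.31 ± 0.10, and Spib, an Ets factor of tuft and M cells, at 5.33 against 3.54 ± 0.17. In the same library the crypt stem cell score was low, at 0.80 against 1.45 ± 0.03. The summed level of that list was not, at 59.4 CPM beside 56.8 in sham replicate 4, 64.1 in 5 and 107.6 in 7. Lgr5 was highest there of the later libraries. In that library mt-Rnr1 was low, at 14.67 against 16.16 ± 0.13.

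Sham replicate 5 stood apart for other genes. The adhesion score was 7.44 there against 6.39 ± 0.06 (SD, n = 3) in the other later libraries, Neat1, a nuclear noncoding RNA, was at 12.20 against 11.01 ± 0.07, and Cdh1 was at 9.42 against 8.51 ± 0.04. Gsdmc4, a gasdermin of the villus, was low there, at -1.99 against 1.91 ± 0.06. This library also had the most genes at 0 where the other later libraries made at least 20 counts due. The share was 1.27%, beside 0.12%, 0.61% and 0.31% in sham replicates 4, 6 and 7. Its part in the Gsdmc4 value was not tested.

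The early minus later difference of Tm4sf4 differed between sham and pMCAO by -2.59 on the log2 scale in the limma fit (adjusted p = 0.0137), a value that rests on 1 early pMCAO library and on sets chosen from the same 12 libraries. The ileum score was lower in the early sham libraries than in the later ones by a mean difference of -0.72, at 4.15 to 4.39 early and 4.43 to 5.80 later, whereas the early pMCAO library, at 5.79, was above all 4 later ones, at 4.63 to 5.15. This difference was not tested.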

How the results depend on the processing

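Leaving out 1 library in turn moved the calls between 4 and 616 higher early and between 22 and 983 higher later. With all 12 libraries the calls were 472 and 1178, under quantile normalisation 68 and 215, and without sham replicates 2 and 3 together 0 and 9, with 1603 genes at an unadjusted p under 0.05 in that limma fit. More genes were called higher later by edgeR (1168), DESeq2 (1618) and limma-trend (1454). The gain in genes detected, later minus early, was 3296 at a minimum of 10 counts, with libraries at full depth and not thinned. Mean depth was 10269716 counts early and 15822242 later, so this gain is not at equal depth. Called between sham and pMCAO were 61 genes with DESeq2 and 0 to 1 without 1 library.

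Crypt stem cell medians were -2.33 (edgeR), -2.39 (DESeq2), -1.92 (limma-trend), -2.03 (no mitochondrial genes), -2.48 (equal depth), -2.20 (12 libraries) and 0.30 (quantile). Enteroendocrine medians were -3.18, -3.16 and -3.64 by those 3 tools, -3.62 with no filter, -3.62 with 12 libraries and -3.23 under quantile normalisation. Quantile normalisation also gave -0.84 for cell cycle, -0.33 for M cell, -0.65 for brush border, 0.52 for villus tip, 1.71 for myeloid and -0.075 for stress genes. With 12 libraries, villus middle was 0.33 and ileum 0.12. At equal depth, myeloid was -0.016. Without sham replicates 2 and 3, M cell was -2.06 and villus bottom -1.47. Leaving out 1 library gave -3.15 to -0.80 for crypt stem, -1.96 to -0.69 for cell cycle, -3.95 to -3.29 for enteroendocrine, -1.80 to -0.48 for M cell, -2.20 to -1.36 for villus bottom, -1.48 to 1.30 for B and plasma cell, 0.032 to 1.21 for myeloid and 0.16 to 0.54 for stress genes. The causes were not tested. In all, 389 of 436 list medians moved by less than the spread between replicates. Of 38 named called genes, 37 kept their direction in every setting, and mt-Rnr2 came out at 0 under quantile normalisation; 4 were called in every setting.

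Sham and pMCAO share replicate numbers, which pair nothing in the labels. For replicates 2 to 5, each sham library was set beside the later pMCAO library of the same number. Sham replicates 2 and 3 are early, and 4 and 5 later. Their deviations from the means of their own sets had correlations of -0.01 to 0.07, so the numbers were not read as pairs. With a replicate block, 2 genes were called between sham and pMCAO. Of the 3 early libraries, 2 are the shallowest of the 7, which limits what can be said of low genes there.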
